A study of Mus musculus with 10 samples.

Results

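The genes described here encode the MYC, MAX and MXD network, a family of basic helix-loop-helix leucine zipper transcription factors that bind DNA in pairs. The members were 10 genes, Myc, Mycn, Max, Mxd1, Mxi1, Mxd3, Mxd4, Mnt, Mga and Mlx, and every probe set of the array whose platform symbol is one of these was used. That gave 26 of 45037 probe sets, and 10 of the 18193 genes that the array represents by an unambiguous symbol. A probe set is the group of short probes on the array that reports 1 transcript or several transcripts of a gene.

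The arrays measured messenger RNA of mouse blood stem and progenitor cells carrying a retrovirus with EGFP and a form of the homeobox transcription factor HOXB4, with 2 arrays in each of 5 groups. All groups came from Lin- Sca1+ cells grown for 14 days without serum, with mSCF, huFL, huIL-11, mIL-3 and 10 nM 4-hydroxytamoxifen (TMX), sorted as GFP+, lineage negative, Sca1+ and ckit+ (LSK) cells, and kept with TMX for another 12 h. HOXB4-ER (HOXB4ERT in some labels) is HOXB4 fused to a domain through which TMX brings it into the nucleus, and HOXB4const is HOXB4 without that domain, active with or without TMX. The groups were HOXB4-ER cells 4 h without TMX, HOXB4-ER cells 1 h without TMX, HOXB4-ER cells 1 h with TMX, HOXB4const cells 1 h without TMX and HOXB4const cells 1 h with TMX. Withdrawal of TMX was meant to switch HOXB4 off, and the HOXB4const cells to show what TMX does by itself. No 4 h arrays of HOXB4-ER cells with TMX or of HOXB4const cells are analysed here, so the 4 h comparison below also differs in time in culture. Each group is a virus-carrying cell population and not a clone, its cells were sorted for the EGFP of the virus, and the labels call the arrays biological replicates 1 and 2 without saying which animals or cultures stand behind a number.

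In this network MAX is the shared partner. MYC and MYCN pair with MAX at the E-box CACGTG and activate genes of growth, ribosome production and the cell cycle, while MXD1, MXI1, MXD3, MXD4 and MNT pair with MAX at the same sites and recruit SIN3 and histone deacetylases to repress them. MGA is a MAX partner of the PRC1.6 repressor complex, and MLX is a MAX-like protein that pairs with MXD1, MXD4, MNT and the glucose-sensing factors MLXIP and MLXIPL. In mouse blood, MYC and MYCN are required for normal stem cell function, and MXD1 is known for its increase as myeloid cells leave the cell cycle and mature.

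The letters of the network's E-box, CACGTG, stood in the promoters of some of its members, and these sequences are shown for that reason. RefSeq promoter windows (GRCm38.p6) of 250 bases before and 50 bases after a gene's start were found for 9 member genes, as 11 windows. CACGTG, which reads the same on both strands, lay in 4 of these 11 windows, against 7.15% of all 32851 windows. The 4 genes were Max, Mxd4, Mnt and Mlx. The sequences below are 46 bases on the gene's strand, 5′ to 3′, with the E-box in capitals. A match of these letters is a description of the window and no evidence of binding.
Max, chr12:76962226-76962271, minus strand, E-box starting at -3: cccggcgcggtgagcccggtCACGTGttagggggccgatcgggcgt
Mxd4, chr5:34187904-34187949, minus strand, E-box starting at -219: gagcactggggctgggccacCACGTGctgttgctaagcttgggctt
Mnt, chr11:74830781-74830826, plus strand, E-box starting at -123: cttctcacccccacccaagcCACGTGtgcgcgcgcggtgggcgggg
Mlx, chr11:101087230-101087275, plus strand, E-box starting at -40: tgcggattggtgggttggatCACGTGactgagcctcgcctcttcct
Positions are counted from the gene's start, negative upstream. The E-box of Max ran across the start itself, and that of Mxd4 was the farthest upstream of the 4.

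Among the brightest probe sets of the 10 genes, the means of the 5 groups lay farthest apart for Mxd1, so its upstream sequence is shown too. Its 250 bases before the start (chr6:86669160-86669409, minus strand) held 0 copies of CACGTG and 6 copies of the GC box GGGCGG, a site of SP-family factors, printed in capitals and starting at -177, -121, -81, -65, -11 and -7, of which the last 2 overlap.
Mxd1 upstream: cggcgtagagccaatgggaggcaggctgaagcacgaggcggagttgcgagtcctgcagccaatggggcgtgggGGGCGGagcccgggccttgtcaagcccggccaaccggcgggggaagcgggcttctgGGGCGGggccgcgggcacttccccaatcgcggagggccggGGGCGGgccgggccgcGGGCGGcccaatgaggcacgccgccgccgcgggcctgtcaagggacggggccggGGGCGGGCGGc
GGGCGG on either strand lay in 9 of the 11 member windows, those of 7 genes, against 35.7% of all windows. Overlaps with other motifs were not examined.

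All 10 genes were measured above the middle of the array. Values are the deposited log2 signals, so a difference of 1 is a doubling, and levels are compared only within a probe set. The median probe set had a mean log2 signal of 4.05 over the 10 arrays, and 17 of the 26 member probe sets lay at or above it, including the brightest probe set of every gene. The other 9 probe sets were dimmer, and their values scattered widely: the Mxi1 probe set 1425732_a_at ranged over 7.06 log2 units and Mxd4 1422574_at over 5.94, against 0.69 for the brightest Mnt probe set and 0.90 for the brightest Mlx probe set. The brightest probe set, by its mean over all arrays, stands for a gene below, and the others are described more briefly.

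**Figure D1:**
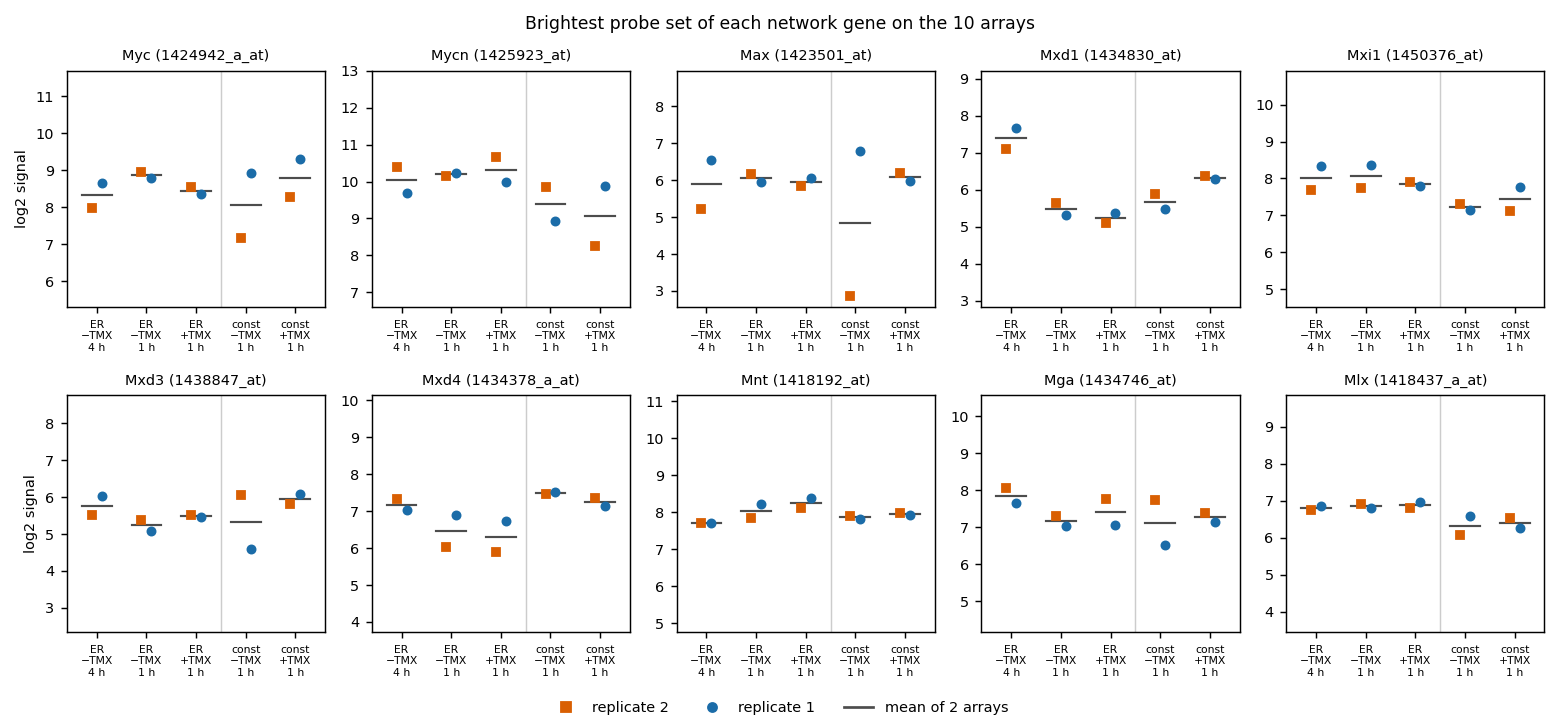
The log2 signal of the brightest probe set of each of the 10 network genes in the 5 groups (ER, HOXB4-ER; const, HOXB4const; −TMX, without TMX; +TMX, with TMX), with squares for replicate 2, circles for replicate 1 and a line for the mean of 2 arrays. Every panel spans the same number of log2 units; Mxd1 stands highest on both HOXB4-ER arrays 4 h without TMX, while Mnt and Mlx hardly vary and Max has 1 low array in HOXB4const cells without TMX.

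The array medians ranged from 3.96 to 5.32 log2 units, and the number of arrays limits the precision of a level. Kit, Cd34 and the leukocyte genes Ptprc and Spn were all brighter than the median probe set, and Ly6a was not analysed here. So were all 9 monocyte and macrophage markers and all but 2 of 10 granulocyte markers, so this brightness does not set progenitors apart. Levels of some marker lists went with the replicate number: the mean level of 9 monocyte and macrophage markers was between 6.70 and 7.58 on the replicate 2 arrays and between 9.24 and 9.93 on the replicate 1 arrays. The 10 granulocyte markers averaged 9.09 to 9.50 on the replicate 1 arrays of HOXB4-ER cells, but 6.89 and 6.59 on those of HOXB4const cells without and with TMX, and 5.80 to 6.66 on the replicate 2 arrays. The Gapdh control, which compares probes at the 3′ and 5′ ends of the transcript, had a 3′ minus 5′ difference of 2.72 ± 1.08 on the replicate 2 arrays and 1.10 ± 0.26 on the replicate 1 arrays (log2, SD, n = 5 each). These values are set beside the members' results below. On bulk arrays, fewer cells of a type and less RNA per cell cannot be told apart.

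No member passed the test in any of the 6 comparisons between groups. Limma's adjusted p was under 0.05 for 0 of 26 member probe sets and for 0 of all 45037 in each comparison (0%), so all differences below are values that did not pass. At an unadjusted p under 0.05, 1 of 26 member probe sets was called in HOXB4-ER cells 4 h without TMX against 1 h with TMX (background 3.35%), 1 in HOXB4-ER cells without against with TMX at 1 h (background 4.76%) and 0 in HOXB4const cells without against with TMX at 1 h (background 4.34%). The test of whether the 1 h difference itself was unlike in HOXB4-ER and HOXB4const cells called 0 (background 3.77%). HOXB4-ER cells without TMX at 4 h against 1 h gave 2 (background 5.68%), and HOXB4-ER against HOXB4const cells with TMX gave 2 (background 4.38%). With 26 probe sets, 1 or 2 calls are near these background shares. The comparisons share arrays, so they are not independent of each other. Among the 10 genes' brightest probe sets the standard error of a difference between 2 groups was 0.40 (Mnt) to 1.16 (Max) log2 units. The 95% intervals are wider: at 4 h against with TMX they ran from -1.49 to 0.41 for Mnt and from -2.79 to 2.67 for Max. In the test of whether the 1 h difference was unlike in the constructs, the errors were 0.57 for Mnt and 1.64 for Max.

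Myc, the founding activator of the network, had no resolved difference after withdrawal in HOXB4-ER cells. The log2 signal of Myc (1424942_a_at, its single probe set) on the replicate 2 and replicate 1 arrays was 7.99 and 8.66 in HOXB4-ER cells 4 h without TMX, 8.95 and 8.78 at 1 h without TMX, and 8.53 and 8.36 at 1 h with TMX. In HOXB4const cells it was 7.16 and 8.94 without TMX and 8.27 and 9.31 with TMX. Both HOXB4-ER arrays 1 h without TMX lay above both with TMX, while the 4 h arrays and the HOXB4const arrays overlapped with theirs. Such a separation at 1 h, in either direction, was found for 7 of the 26 member probe sets. The share over all probe sets was counted only for the 4 h comparison with TMX, where it was 30.0%, and by replicate number. It was not counted at 1 h, so the separation of Myc is a description only. Myc differed by -0.12 ± 0.69 at 4 h (difference ± standard error, limma, 95% interval -1.74 to 1.50), by 0.42 ± 0.69 at 1 h and by -0.74 ± 0.69 in HOXB4const cells without against with TMX. At 4 h against 1 h without TMX it differed by -0.54 ± 0.69 (95% interval -2.16 to 1.08), with both 4 h arrays below both 1 h arrays. Both intervals at 4 h leave room for a difference in either direction.

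Mycn, the second activator, had 3 probe sets that did not move together. The brightest, 1425923_at, read 10.38 and 9.69 in HOXB4-ER cells 4 h without TMX, 10.15 and 10.24 at 1 h without TMX, and 10.65 and 9.98 at 1 h with TMX. HOXB4const cells read 9.86 and 8.93 without TMX and 8.24 and 9.89 with TMX. With TMX, both HOXB4-ER arrays lay above both HOXB4const arrays, with a difference of 1.25 ± 0.68 (limma adjusted p = 1). Separation of the constructs with TMX, in either direction, was found for 11 of the 26 member probe sets. The share over all probe sets was not counted for this comparison. In the 4 h comparison with TMX, also with 2 arrays per group, it was 30.0%, so such separations are descriptions only. The differences of 1425923_at after withdrawal were -0.28 ± 0.68 at 4 h and -0.12 ± 0.68 at 1 h. The dim probe set 1425922_a_at was the only member with an unadjusted p under 0.05 at 1 h in HOXB4-ER cells, higher by 2.83 ± 1.03 without TMX (95% interval 0.42 to 5.25, limma adjusted p = 0.919). Its arrays read 4.12 and 4.31 without TMX against -0.39 and 3.15 with TMX, so the value rests on 1 low array: without HOXB4-ER with TMX replicate 2 the difference was 1.07. The third probe set, 1417155_at, was also dim and spread over 4.03 units.

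Max, the common partner, varied mainly through 2 arrays. The log2 signal of Max (1423501_at, its single probe set) was 5.22 and 6.55 in HOXB4-ER cells 4 h without TMX, 6.15 and 5.96 at 1 h without TMX, and 5.85 and 6.05 at 1 h with TMX. HOXB4const cells had 2.87 and 6.80 without TMX and 6.19 and 5.96 with TMX. The low values of 2.87 and 5.22 were on the arrays with the largest Gapdh 3′ minus 5′ differences, 3.98 and 3.47. Differences were -0.06 ± 1.16 at 4 h, 0.11 ± 1.16 at 1 h and -1.24 ± 1.16 in HOXB4const cells without against with TMX.

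Mlx, the MAX-like partner of the glucose-sensing branch, was among the steadiest members. Its brightest probe set, 1418437_a_at, read 6.74 and 6.86 in HOXB4-ER cells 4 h without TMX, 6.90 and 6.81 at 1 h without TMX, and 6.80 and 6.96 at 1 h with TMX. In HOXB4const cells it read 6.07 and 6.59 without TMX and 6.53 and 6.26 with TMX. The 3 HOXB4-ER groups overlapped, and differences after withdrawal were -0.08 ± 0.42 at 4 h and -0.03 ± 0.42 at 1 h, with a 95% interval of -1.06 to 0.90 at 4 h. With TMX, both HOXB4-ER arrays lay above both HOXB4const arrays, with a difference of 0.49 ± 0.42 (limma adjusted p = 1). The second probe set, 1425930_a_at, ranged over 4.10 units, with its lowest values, 2.41 to 3.02, on 3 of the 4 HOXB4const arrays.

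Mxd1 gave the largest difference of the members at 4 h relative to its error. This repressor pairs with MAX in place of MYC. The log2 signal of Mxd1 (1434830_at) was 7.12 and 7.68 in HOXB4-ER cells 4 h without TMX, against 5.11 and 5.37 in HOXB4-ER cells 1 h with TMX. At 1 h without TMX it was 5.64 and 5.31 in HOXB4-ER cells. HOXB4const cells read 5.88 and 5.48 without TMX and 6.37 and 6.29 with TMX. Both 4 h arrays were above all 8 other arrays.

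The 4 h mean of Mxd1 was 7.40 ± 0.40 and the mean with TMX 5.24 ± 0.19 (SD, n = 2 each). The difference was 2.16 ± 0.44 log2 units (95% interval 1.13 to 3.19, limma adjusted p = 0.932 over all probe sets), and its unadjusted p was under 0.05. Against 1 h without TMX the 4 h level was higher by 1.92 ± 0.44 (95% interval 0.89 to 2.95, limma adjusted p = 0.492). In the 17 alternative settings that kept this probe set, leaving out single arrays included, the difference between 4 h without TMX and 1 h with TMX stayed between 1.88 and 2.44, and its adjusted p between 0.657 and 1. Averaging the 3 Mxd1 probe sets gave a difference of 1.45. After 1 h the difference from cells with TMX was 0.24 ± 0.44, and the 1 h withdrawal difference of HOXB4-ER cells minus that of HOXB4const cells was 0.88 ± 0.62 (95% interval -0.58 to 2.34). By mean level the groups ran from HOXB4-ER 4 h without TMX through HOXB4const with TMX (6.33), HOXB4const without TMX (5.68) and HOXB4-ER 1 h without TMX (5.47) to HOXB4-ER with TMX (5.24). The last 3 groups in this order overlapped with their neighbours, while both HOXB4const arrays without TMX lay below both with TMX, with a difference of -0.65 ± 0.44 (95% interval -1.68 to 0.38). With TMX, HOXB4-ER cells had a lower Mxd1 level than HOXB4const cells, with a difference of -1.09 ± 0.44 (95% interval -2.12 to -0.06, limma adjusted p = 1).

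The other Mxd1 probe sets gave partial views of the 4 h difference. The second, 1455104_at, read 5.29 and 6.75 in HOXB4-ER cells 4 h without TMX against 2.71 and 5.07 in HOXB4-ER cells with TMX, a difference of 2.14 ± 1.44 (95% interval -1.26 to 5.53). Its arrays did not overlap either, but replicate 2 lay below replicate 1 in all 5 groups, which widened the error. Within replicate 2 the difference was 2.59 and within replicate 1 it was 1.68, and with replicate number as a block it was 2.14 ± 0.83 (limma adjusted p = 1, unadjusted p under 0.05). The third, 1422002_at, was dim, with a mean level above only 9.32% of probe sets, and it read 0.97 and 1.66 in HOXB4-ER cells 4 h without TMX against 0.61 and 1.90 with TMX.

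**Figure D2:**
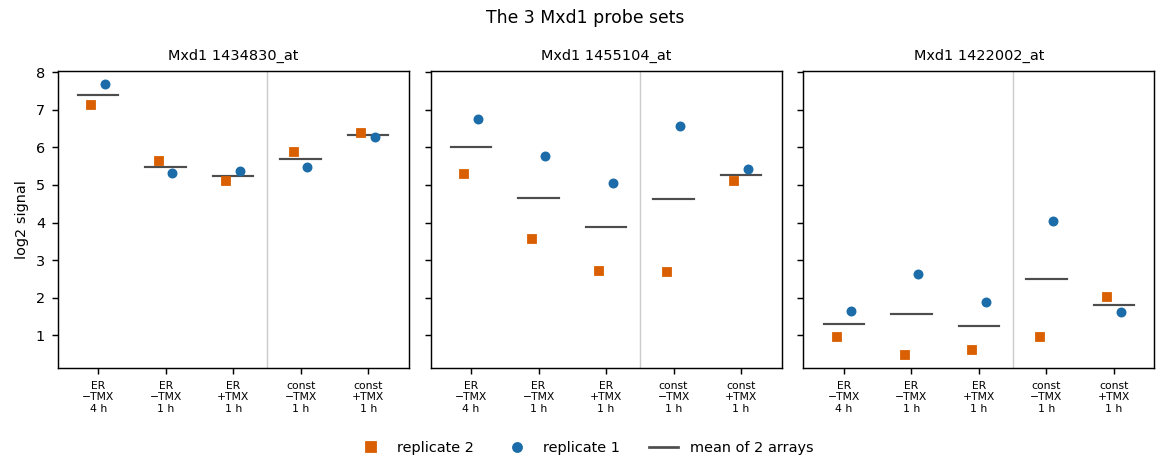
The log2 signal of the 3 Mxd1 probe sets in the 5 groups, on a shared axis, with squares for replicate 2, circles for replicate 1 and a line for the mean of 2 arrays. In 1434830_at the HOXB4-ER arrays 4 h without TMX, 7.12 and 7.68, are above all others; in 1455104_at replicate 2 is below replicate 1 in every group; 1422002_at is dim throughout.

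Markers of maturing myeloid cells were looked at beside Mxd1, because Mxd1 is known to increase with myeloid maturation. The mean level of the 9 monocyte and macrophage markers was 6.70 and 9.64 in HOXB4-ER cells 4 h without TMX against 6.86 and 9.76 with TMX, and 4 of the 9 were higher. The mean level of the 10 granulocyte markers was 6.41 and 9.38 at 4 h without TMX against 6.44 and 9.50 with TMX, and 5 of the 10 were higher. The 6 dendritic markers averaged 4.65 and 8.07 at 4 h without TMX against 3.97 and 7.40 with TMX, and 5 of the 6 were higher. The 5 lymphoid markers, 4 of them dimmer than the median probe set, averaged 3.35 and 4.54 at 4 h without TMX against 2.03 and 4.07 with TMX, and 4 of the 5 were higher. Of the other lists, 4 of 7 mast cell and basophil, 2 of 5 erythroid and 2 of 5 megakaryocyte markers were higher, and so were 3 of the 4 genes Kit, Cd34, Ptprc and Spn. The part of these cell types in the Mxd1 result was not tested.

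Mxi1, the second MXD repressor, had both HOXB4-ER arrays above both HOXB4const arrays at 1 h, with and without TMX. With TMX the nearest arrays of the constructs read 7.79 and 7.78, and the difference did not pass the test. Without TMX the constructs were not compared by a test. Its brightest probe set, 1450376_at, read 7.68 and 8.33 in HOXB4-ER cells 4 h without TMX, 7.75 and 8.37 at 1 h without TMX, and 7.91 and 7.79 at 1 h with TMX. HOXB4const cells read 7.30 and 7.16 without TMX and 7.11 and 7.78 with TMX. The dim probe set 1425732_a_at, whose values are given with the replicate numbers below, differed by -2.11 ± 2.36 at 4 h and 0.74 ± 2.36 at 1 h. For the brightest probe set, the difference between HOXB4-ER and HOXB4const cells with TMX was 0.41 ± 0.48 (95% interval -0.73 to 1.55), and the differences after withdrawal in HOXB4-ER cells were 0.16 ± 0.48 at 4 h and 0.21 ± 0.48 at 1 h.

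Mxd3, which is known from other tissues for its expression in proliferating cells, overlapped between the groups at 4 h. Its brightest probe set, 1438847_at, read 5.50 and 6.03 in HOXB4-ER cells 4 h without TMX against 5.52 and 5.45 with TMX, a difference of 0.28 ± 0.57. The 3 Mxd3 probe sets disagreed on direction at 4 h, with differences of 0.28, -0.41 and 0.74.

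Mxd4 was higher at 4 h in all 4 of its probe sets, none past the test. The brightest, 1434378_a_at, read 7.32 and 7.03 in HOXB4-ER cells 4 h without TMX, 6.02 and 6.89 at 1 h without TMX, and 5.88 and 6.74 at 1 h with TMX. HOXB4const cells read 7.47 and 7.51 without TMX and 7.34 and 7.13 with TMX. Both HOXB4-ER arrays with TMX lay below the 4 h arrays and below all HOXB4const arrays, and the 4 h difference was 0.86 ± 0.51 (95% interval -0.33 to 2.05). The other 3 probe sets differed by 0.36, 0.45 and 0.54 at 4 h. With TMX, HOXB4-ER cells had a difference of -0.92 ± 0.51 from HOXB4const cells (95% interval -2.12 to 0.27), in the same direction as Mxd1 in that comparison.

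Mnt, a repressor that is present in both resting and cycling cells, was the member with the narrowest range. Its brightest probe set, 1418192_at, read 7.72 and 7.70 in HOXB4-ER cells 4 h without TMX, 7.86 and 8.23 at 1 h without TMX, and 8.11 and 8.39 at 1 h with TMX. HOXB4const cells read 7.91 and 7.83 without TMX and 7.98 and 7.93 with TMX. The 4 h arrays were the lowest of all 10, and the difference from cells with TMX was -0.54 ± 0.40 (95% interval -1.49 to 0.41). The dim probe set 1418193_at did not follow: in the same comparison it differed by 0.73 ± 0.97, with overlapping arrays. At 4 h against 1 h without TMX, the brightest probe set differed by -0.33 ± 0.40 and the dim one by 2.35 ± 0.97 (limma adjusted p = 0.86). The arrays of the dim probe set read 3.41 and 3.48 at 4 h against 0.63 and 1.57 at 1 h.

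Mga, the MAX partner that also carries a T-box DNA-binding domain, had 5 probe sets. The brightest, 1434746_at, read 8.05 and 7.66 in HOXB4-ER cells 4 h without TMX, 7.30 and 7.05 at 1 h without TMX, and 7.77 and 7.07 at 1 h with TMX. HOXB4const cells read 7.73 and 6.51 without TMX and 7.40 and 7.14 with TMX. Differences were 0.44 ± 0.55 at 4 h and -0.25 ± 0.55 at 1 h, and the groups overlapped in both. The probe sets 1431232_a_at, 1422646_at and 1442356_at differed by -0.53 ± 0.89, -0.19 ± 0.64 and 0.79 ± 1.32 at 4 h. The dimmest, 1433012_at, read 0.47 and 0.64 in HOXB4-ER cells with TMX against 2.00 and 3.31 in HOXB4const cells with TMX. The difference was -2.11 ± 0.61 (limma adjusted p = 0.923), at a mean level above only 5.01% of probe sets.

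Across the 26 probe sets, directions were mixed. In HOXB4-ER cells 4 h without TMX against with TMX, 15 were higher and 11 lower, with a median difference of 0.22 against -0.02 over all probe sets. Both arrays of a group were clear of both arrays of the other for 5 of the 26, against 30.0% of all probe sets: Mxd1 1434830_at, Mxd1 1455104_at, Mxd4 1434378_a_at and Mga 1433012_at were higher and Mnt 1418192_at was lower. At 1 h in HOXB4-ER cells 19 were higher and 7 lower (median 0.27, all probe sets 0.12), but with each array centred on its own median these counts were 12 and 14 and the median -0.11 (all probe sets -0.27). In HOXB4const cells 9 were higher without TMX and 17 lower (median -0.18, all probe sets 0.09). By their brightest probe sets, 5 of the 10 genes were higher and 5 lower at 4 h, and likewise 5 and 5 at 1 h.

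**Figure D3:**
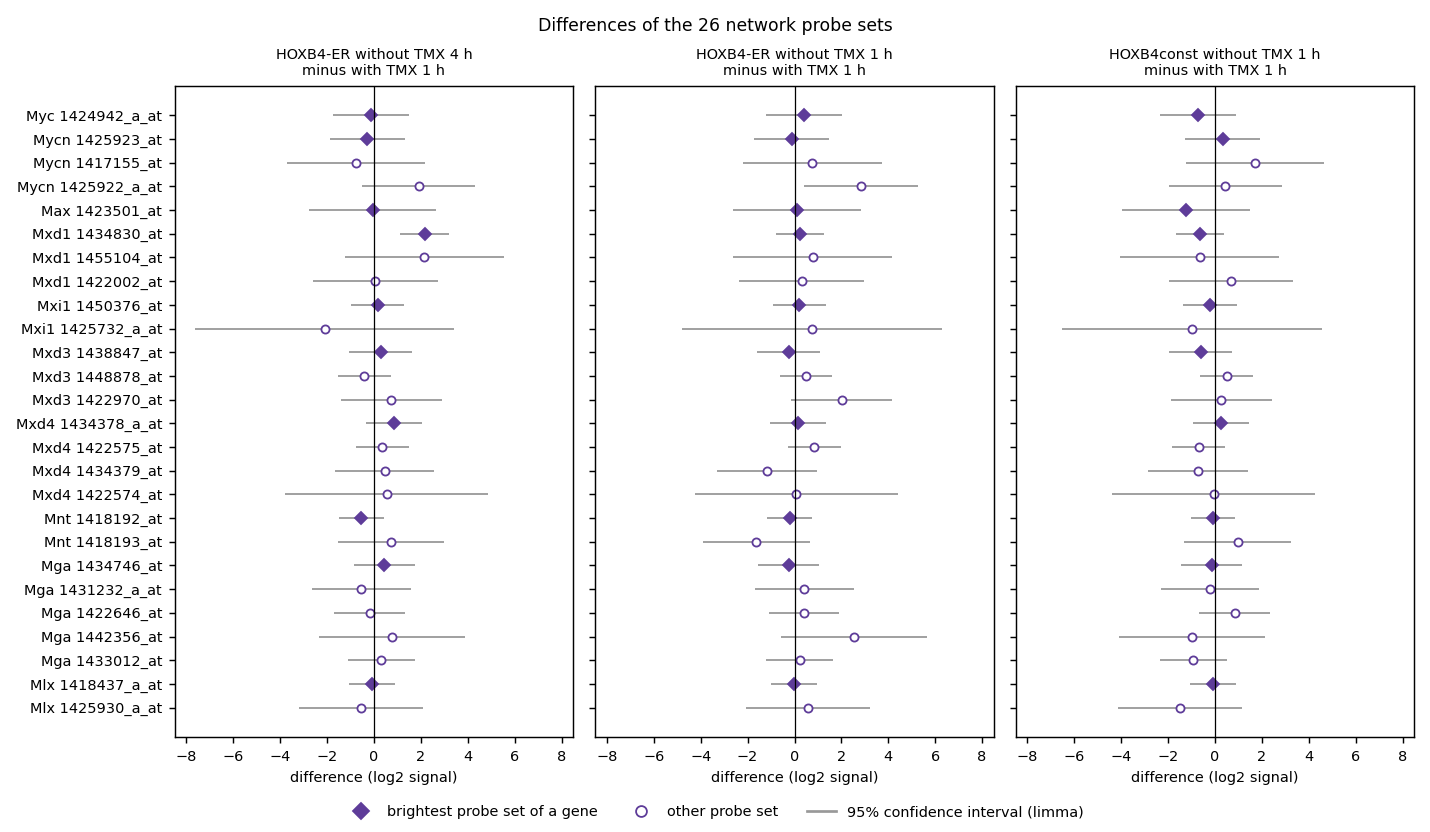
Differences in log2 signal of the 26 network probe sets in 3 comparisons, each without TMX minus with TMX, with filled diamonds for the brightest probe set of a gene, open circles for the others and lines for limma's 95% intervals. In the left panel the interval of Mxd1 1434830_at, 1.13 to 3.19, lies clear of 0, and in the middle panel that of Mycn 1425922_a_at does; neither passed adjustment over all probe sets.

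Genes that MYC and its rivals regulate were followed through lists of general knowledge. Of 38 measured genes that MYC activates, such as those of ribosome production and nucleotide synthesis, 11 were higher and 27 lower in HOXB4-ER cells 4 h without TMX against with TMX, with a median difference of -0.22 against 0.02 over all genes. None had an unadjusted p under 0.05. Quantile normalization gave 5 higher and 33 lower. At 4 h against 1 h without TMX, 8 were higher and 30 lower, with a median of -0.40 against -0.06 over all genes, but centring each array on its median gave 19 and 19. At 1 h without against with TMX in HOXB4-ER cells, 26 were higher and 12 lower (median 0.10, all genes 0.07), but centring gave 3 and 35, so the direction at 1 h turned with the scaling.

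Of 10 genes that MYC represses, 8 were higher and 2 lower at 4 h without TMX against with TMX, with a median difference of 0.57 against 0.02 over all genes. An unadjusted p under 0.05 was found for 3 of the 10 (background 3.35% of all probe sets), in a short list chosen with earlier results of these data known. They were Cdkn1a, a cell cycle inhibitor also induced by p53, at 2.04 ± 0.72, the dim Cdkn1c, a related inhibitor, at 2.48 ± 0.89, and the dim Ndrg2 at 2.26 ± 0.73. Limma's adjusted p was 1 for each. The counts higher and lower were the same under both other scalings at 4 h. At 1 h without TMX 8 of these 10 were also higher in HOXB4-ER cells. Cdkn1c, at 3.24 ± 0.89, was the 1 with an unadjusted p under 0.05 (background 4.76%). With each array centred 6 were higher and 4 lower, and the median was 0.11 against 0.50 as deposited. In HOXB4const cells 6 were higher and 4 lower, and centring gave 2 and 8. With TMX, 7 of the 10 were lower in HOXB4-ER than in HOXB4const cells. The 2 with an unadjusted p under 0.05 (background 4.38%) were the dim Cdkn1c at -2.51 ± 0.89 and Ndrg1 at -1.44 ± 0.47. The comparisons at 4 h and 1 h share the arrays with TMX, so the counts at both times are not independent.

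The other genes of the pathway showed few calls. Of 5 further network genes, Mlxipl, a glucose-sensing partner of MLX, was higher at 4 h by 2.57 ± 0.99 at a dim level (limma adjusted p = 1). It was the 1 of these 5 with an unadjusted p under 0.05 (background 3.35%). None of the 9 SIN3-HDAC corepressor genes, 15 cofactors of MYC, 15 regulators of MYC protein stability, 9 PRC1.6 partners of MGA, 3 targets of MLX with its glucose-sensing partners or 8 other factors of the CACGTG site had an unadjusted p under 0.05 in the 4 h or 1 h comparisons of HOXB4-ER cells.

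Arrays were also compared by replicate number, since several member probe sets, some of them brighter than the median probe set, were lower in replicate 2. Replicate 2 against replicate 1, with group as a covariate, passed limma's adjusted threshold for 0 of 26 member probe sets and 0% of all probe sets, but 6 of 26 had an unadjusted p under 0.05 (background 13.7%), all lower in replicate 2. They were Mxi1 1425732_a_at (-3.52 ± 0.77), Mxd1 1455104_at (-2.05 ± 0.53), Mxd1 1422002_at (-1.36 ± 0.54), Mnt 1418193_at (-1.32 ± 0.37), Mxd4 1434379_at (-1.19 ± 0.36) and Mga 1431232_a_at (-1.16 ± 0.37). In all, 5 probe sets were higher in replicate 2 and 21 lower, with a median of -0.49 against -0.15 over all probe sets. With each array centred on its median the counts were 11 and 15. Both Mxi1 1425732_a_at and Mga 1431232_a_at had every replicate 2 array below every replicate 1 array, 2 of 26 against 6.50% of all probe sets. With a moderation that follows the mean level and resists outliers, limma's adjusted p was 0.0101 for Mxi1 1425732_a_at and 0.018 for Mxd1 1455104_at. These 2 of 26 members passed beside 2706 of all 45037 probe sets, so the members were near the background share.

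These 6 probe sets were not the brightest of their genes. Mxi1 1425732_a_at read -0.53, 4.08, 4.21, 0.67 and 1.90 on the replicate 2 arrays, in the order of groups given at the start, and 5.44, 6.53, 4.91, 5.14 and 5.89 on the replicate 1 arrays. The brightest Mxi1 probe set averaged 7.55 ± 0.33 in replicate 2 and 7.89 ± 0.49 in replicate 1 (SD, n = 5 each). The brightest Mxd1 probe set averaged 6.02 ± 0.76 in replicate 2 and 6.03 ± 1.00 in replicate 1. The brightest Mga probe set ran the other way from its dimmer probe set: it was higher in replicate 2 in all 5 groups, by 0.56 ± 0.26 (limma adjusted p = 0.409).

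**Figure D4:**
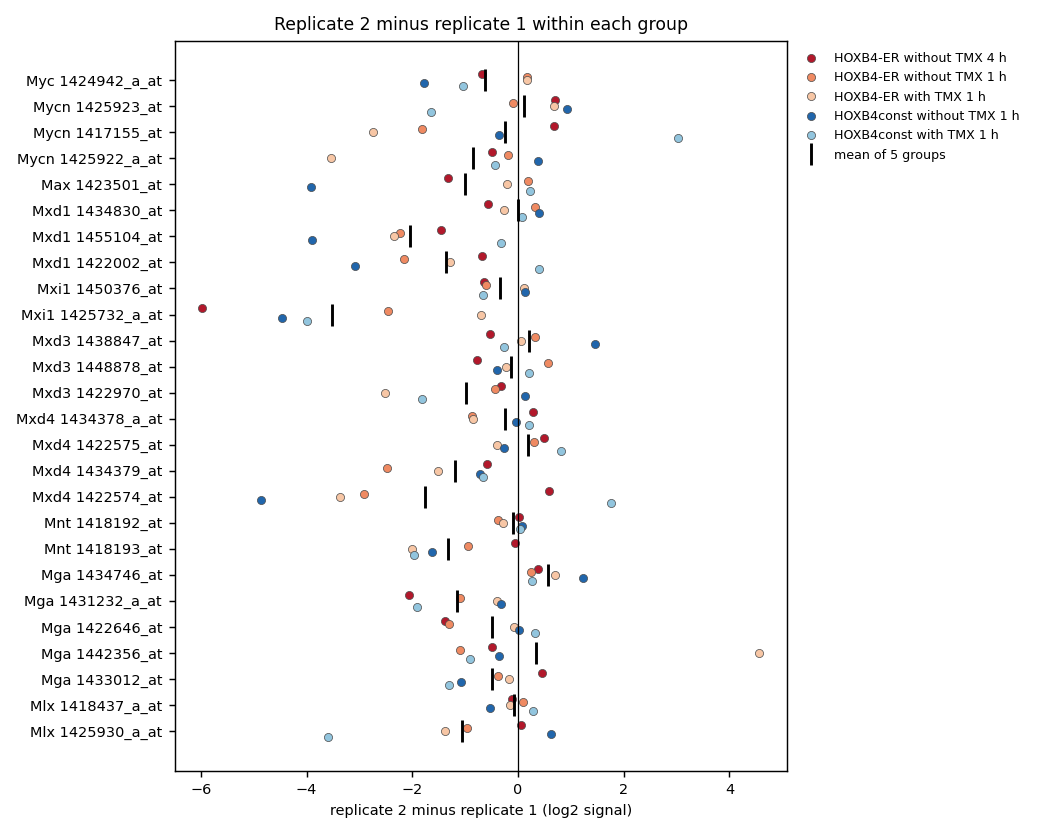
Replicate 2 minus replicate 1 in log2 signal for the 26 network probe sets, with a dot for each of the 5 groups and a black tick for their mean. Mxi1 1425732_a_at, with a mean of -3.52, has all 5 dots left of 0; Mxd1 1434830_at is centred on 0; Mga 1434746_at has all 5 right of 0.

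The lists of regulated genes were also compared by replicate number. Of the 38 genes that MYC activates, 31 were higher in replicate 2, with a median of 0.22 against -0.03 over all genes, and 5 had an unadjusted p under 0.05, a share near the background of 13.7%. Cad, an enzyme of pyrimidine synthesis, was higher by 0.94 ± 0.22, Srm, an enzyme of spermidine synthesis, by 0.75 ± 0.23, and the nucleolar genes Gnl3 and Nop56 by 0.73 ± 0.25 and 0.66 ± 0.22. Of the 10 genes that MYC represses, 9 were lower in replicate 2, but 6 were with each array centred. Among the other factors of the CACGTG site, Tfec and Mitf had differences of -1.45 ± 0.35 and -1.08 ± 0.27. All 9 monocyte and macrophage markers were lower too, with a median of -2.54. Among other lists, 6 of 6 dendritic (median -2.74), 9 of 10 granulocyte (median -1.13) and 4 of 7 mast cell and basophil markers were lower. So were 4 of 5 lymphoid, 3 of 5 erythroid and 3 of 5 megakaryocyte markers. Of Kit, Cd34, Ptprc and Spn, 2 were lower and 2 higher. The part of these markers and of the Gapdh difference in these results was not tested.

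Mxi1 1425732_a_at and Myc were lower on arrays with a larger Gapdh 3′ minus 5′ difference. These correlations are descriptions over arrays that share groups and replicate numbers, and no p is given. The 3 largest Gapdh differences were all on replicate 2 arrays, and the 5 arrays of each replicate number were too few for an r of their own, here and in the likenesses given last. The Mxi1 probe set had a Pearson r of -0.95 (Spearman rho -0.92), and -0.92 without the 2 arrays farthest from the median Gapdh difference. Among the 22519 brighter probe sets of the array, those with a mean of 4.05 or more, 0.280% had a lower r. The Mxi1 probe set itself, with a mean of 3.82, was dimmer than these, and no such share was computed for dim probe sets. Myc had an r of -0.88 (rho -0.77), and -0.65 without those 2 arrays, and 2.30% of these probe sets were lower. The r of -0.74 for Max (rho -0.38) rested on those 2 arrays, since it was 0.07 without them. Over these probe sets the 5th percentile of r was -0.82 and the median -0.02. The brightest Mxd1 probe set had an r of 0.30.

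**Figure D5:**
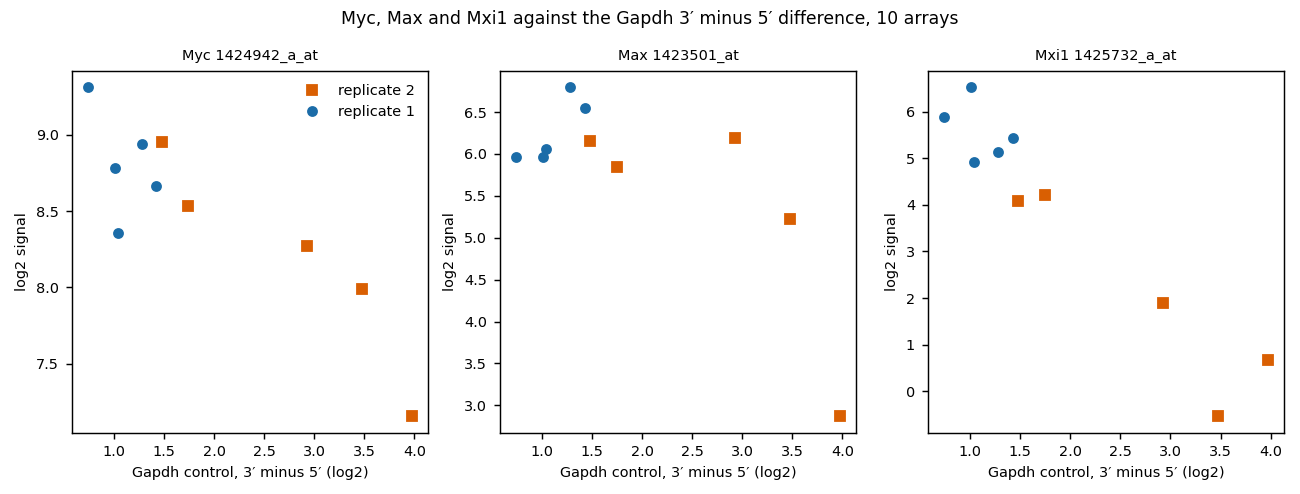
The log2 signal of Myc, Max and Mxi1 1425732_a_at against the Gapdh control's 3′ minus 5′ difference (log2) on the 10 arrays, with squares for replicate 2 and circles for replicate 1. Mxi1 is lower toward the right, Myc is lowest on the array at 3.98, and Max is lowest there too, at 2.87.

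Levels of the members were compared with each other and with other genes over the 10 arrays, also as a description. Myc and Max had an r of 0.84 (rho 0.49), and 0.70 without the 2 arrays farthest from the median of Myc. Mxd1 and Mnt ran opposite, with an r of -0.71 (rho -0.71), and -0.48 without 2 arrays. Myc and Mxd1 had an r of -0.11 and Myc and Mycn one of -0.02. Of 11331 other genes, those most like Myc were Abcf2 (r = 0.956), Echs1 (0.952), Swi5 (0.950), Ssna1 (0.935) and Rhebl1 (0.931). Those most like Mxd1 were Il10rb (0.979), a chain of the receptor for interleukin 10, Akna (0.925), Adam17 (0.922), a protease that sheds cell surface proteins, Senp8 (0.915) and Kdm3a (0.911), a histone demethylase. At 4 h without TMX against with TMX, Il10rb differed by 0.85 ± 0.40, Akna by 1.02 ± 0.41, Adam17 by 0.59 ± 0.40, Senp8 by 1.56 ± 0.47 and Kdm3a by 0.97 ± 0.39. The likeness was computed over these same arrays, so the 5 differences are no separate evidence.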

How the data were processed

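Mouse Genome 430 2.0 arrays (Affymetrix) were hybridised with linearly amplified RNA, per the labels. The authors deposited 1 log2 signal for every probe set of each array. GCOS and RMA appear in the submitters' processing notes, with no role stated. The mean of the unlogged signal without the lowest and highest 2% was 100.03 to 100.04 on the arrays, as in GCOS scaling, so values were not normalized again. How background was corrected is not given in the sources, nor are detection calls or scan dates.

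Of 45101 probe sets, 64 controls were left out. Symbols came from the platform annotation, and 0 needed an update by RefSeq. Limma 3.58.1 in R 4.3.3 was fitted to all 10 arrays with 1 mean per group, empirical Bayes moderation, two-sided tests and Benjamini-Hochberg adjustment over 45037 probe sets, with a threshold of 0.05. A seventh comparison took replicate number with group as a covariate. Errors of differences are moderated standard errors. The p-values measure only the spread between these arrays, which may be technical. The fit was tested on simulated data.

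The text names every member, the up to 4 genes of each pathway list with the smallest p under 0.05, and the 5 genes most like Myc and Mxd1, and gives some of these by number only. Members and the 9 pathway and 8 marker lists were chosen with earlier results of these data known. Alternatives were the replicate block, 2 other scalings, a floor at 5, bright probe sets alone, another moderation, the compared groups alone, leaving out each array, and averaging the probe sets of a gene.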

Additional observations from a re-analysis of the deposited data

How the results depend on the processing

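No member probe set passed the threshold in a comparison between groups under any alternative, and in 1240 recomputed differences of the genes 102 changed sign, all uncalled. The replicate block left 0 probe sets past the threshold in each of the 6 comparisons between groups, members included, and at 4 h against with TMX 2 of 26 members had an unadjusted p under 0.05 with it, against 1 without. The labels do not say what a number marks, but the replicate 2 minus replicate 1 differences correlated between groups by 0.21 to 0.53 over bright probe sets, in 10 of 10 pairs of groups. With values below 5 set to 5, which leaves many dim probe sets with little spread, 3 probe sets of the array passed in HOXB4-ER cells at 4 h and 4 at 1 h, 48 in HOXB4const cells, 37 in the difference between constructs, 12 at 4 h against 1 h, 13 between the constructs with TMX and 101 by replicate number. Moderation with a trend and robust weights gave 1 between the constructs with TMX. By replicate number it gave 2706 of 45037 probe sets, among them 2 of the 26 members. Bright probe sets alone gave 850 of 22519 by replicate number. The cause was not tested. Leaving out an array gave 0 in all comparisons (0 to 0). Centring each array moved the median of all probe sets at 1 h in HOXB4-ER cells to -0.27, against 0.12 as deposited, so small differences depend on the scaling. With 2 arrays per group and standard errors near 0.5 even for bright probe sets, differences under about 1 unit are not resolved.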
